A study of Mus musculus with 8 samples.

Results

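The genes described here encode the subunits of oxidative phosphorylation, grouped by complex and by the genome that carries them. They were chosen by symbol alone: every listed Nduf, Sdh, Uqcr, Cox4i to Cox8 and Atp5 symbol that fits the subunit naming pattern, together with the 13 protein genes of the mitochondrial genome. The rule found 99 of the 21049 listed genes. Of these, 81 are nuclear subunits (36 of complex I, 4 of complex II, 8 of complex III, 16 of complex IV and 17 of complex V) and 13 are mitochondrial (7 of complex I, 1 of complex III, 3 of complex IV and 2 of complex V). The remaining 5 match the pattern but were set apart because they are relatives, duplicates or assembly proteins: Cox7a2l, Ndufa4l2, Ndufb4b, Ndufb4c and Ndufs6b. Ndufa4 carries a complex I name but is a subunit of cytochrome c oxidase, and it was counted with complex IV.

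Oxidative phosphorylation takes place in the inner mitochondrial membrane. Complex I accepts electrons from NADH and complex II from succinate, both pass them through ubiquinone to complex III, cytochrome c carries them to complex IV, and complex V makes ATP from the proton gradient that complexes I, III and IV build. Complex II and the soluble subunits come from nuclear genes, while the mitochondrial genome encodes core membrane subunits of the other complexes, so each of these complexes needs products of both genomes. The liver is rich in mitochondria, and hepatocytes reoxidize through this chain the NADH that ethanol oxidation forms.

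The 8 wild-type mouse samples whose RNA was sequenced comprise 4 controls, which received saline, and 4 that received alcohol. The design text names the inbred strain C57BL/6 and calls the treated group alcohol-fed. No age, dose or length of feeding is given in the sources used here. Every sample is labelled liver and hepatocyte and also AML12, a line of mouse hepatocytes. Whether each sample is a separate animal is not stated, so p-values here reflect the spread among these samples only.

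The library totals recovered from the deposited values were 33872595 to 38407511 reads. Summed FPKM (fragments per unit of gene length and of library size) of 5 hepatocyte markers was 54820 to 63110 in control samples and 50860 to 59730 in alcohol samples, and Kupffer cell, endothelial and red blood cell transcripts, which a hepatocyte line lacks, were present too. Alcohol samples 2 and 4 resembled each other more closely than any other pair within a group, with a chi-square per gene of 7.64 against 38.65 for the next closest pair, and control sample 1 stood apart from the other controls in the measures given below.

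With alcohol, transcripts of many nuclear subunits were lower and none was called higher. Of the 81 nuclear subunits, 77 had a mean of at least 1 FPKM and were tested by limma on log2(FPKM + 1), and 42 of them fell at a Benjamini-Hochberg adjusted p under 0.05. Over all 9228 tested genes 13% were called lower and 44.2% higher. No nuclear subunit was called higher at the adjusted threshold, and 1 had an unadjusted p under 0.05 upward against 47 downward. The median log2 change of the 77 was -0.40, with a range of -1.20 to 0.36, beside a median of 0.24 over all tested genes. All 13 mitochondrial genes were tested, 6 fell and none was called higher, 7 having an unadjusted p under 0.05 downward and 0 upward. The median log2 change of the mitochondrial genes was -0.60.

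By complex, 21 of 36 tested nuclear subunits of complex I fell, 0 of 4 of complex II, 5 of 8 of complex III, 7 of 12 of complex IV and 9 of 17 of complex V. The median log2 changes were -0.43, -0.07, -0.39, -0.49 and -0.34 in the same order. With the length trend of all genes removed from each sample they were -0.12, 0.04, -0.24, -0.11 and -0.04, and the called lower were 11, 0, 4, 1 and 3, so that the order of the complexes depended on this choice. No unadjusted p was under 0.05 in either direction in complex II. Whether the complexes differ from each other was not tested. In bulk RNA, fewer cells of a type and less of a transcript per cell cannot be told apart.

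**Figure D1:**
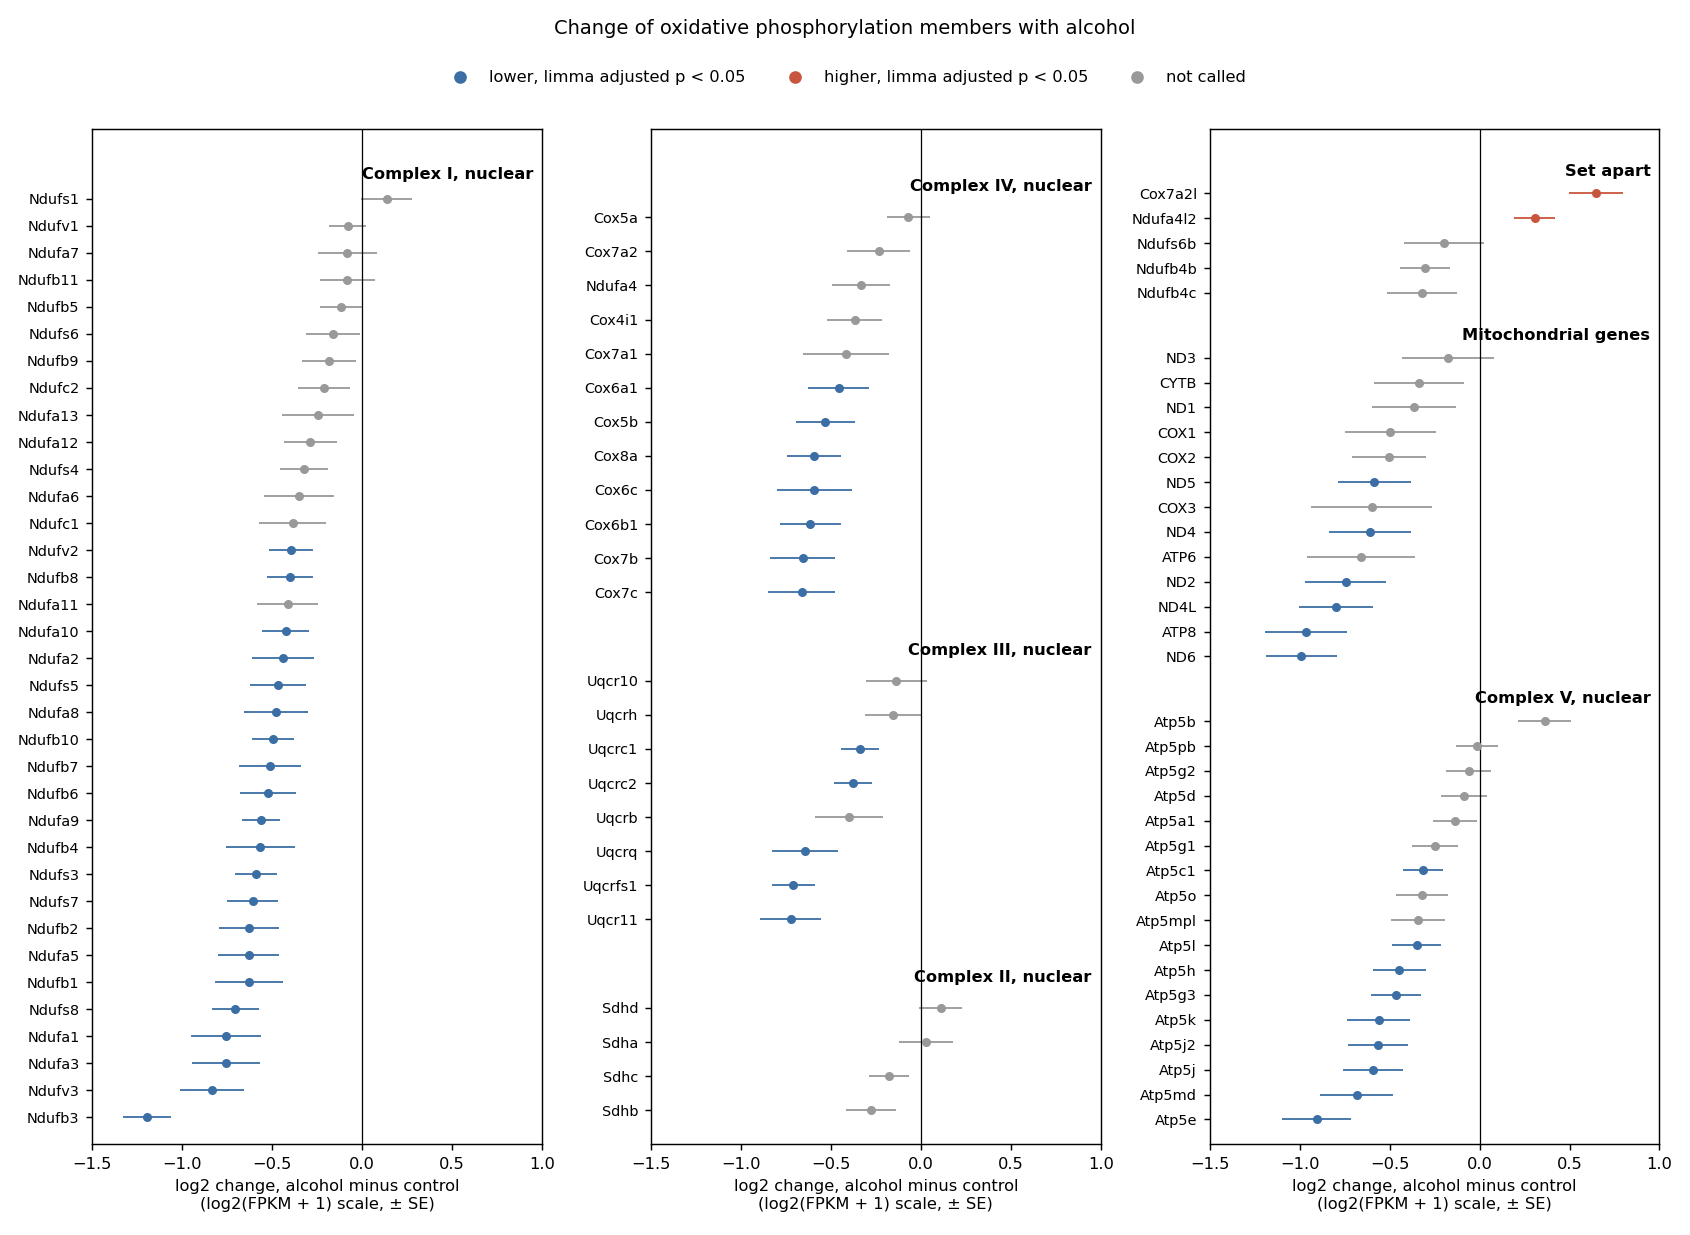
Log2 change with alcohol on the log2(FPKM + 1) scale for 94 of the 95 tested members, by complex and genome, with the standard error from limma (4 samples per group). Blue members were called lower, red members higher and grey members neither; Ndufb3 at -1.20 has the largest fall, and the 2 members called higher, Cox7a2l and Ndufa4l2, are both among those set apart.

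Summed over the nuclear subunits, FPKM was 12642, 17981, 15383 and 15215 in control samples 1 to 4 and 10381, 13402, 10450 and 12435 in alcohol samples 1 to 4. The alcohol mean was 0.762 of the control mean. The groups overlapped, because control sample 1 lay below alcohol sample 2. The summed level of complex II kept 0.924 of the control mean, complex V 0.816, complex I 0.750, complex III 0.740 and complex IV 0.711. As a share of the summed nuclear FPKM, complex II made up 4.22% ± 0.50 (SD, n = 4) in controls and 5.12% ± 0.57 with alcohol, and complex IV 28.7% ± 1.21 and 26.7% ± 1.02. Among the complexes, tested subunits of complex II had the longest median length (1290 bases) and those of complex IV the shortest (541.5 bases). The part of gene length in these shares, which are on the deposited scale, was not tested. With all samples, the ranges of these shares overlapped between the groups in every complex. For complexes II, IV and V control sample 1 alone made the overlap: without it the shares of complex II were 3.77% to 4.42% in controls and 4.56% to 5.76% with alcohol, those of complex IV 28.6% to 29.6% and 25.6% to 27.6%, and those of complex V 25.5% to 26.6% and 27.4% to 29.7%.

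**Figure D2:**
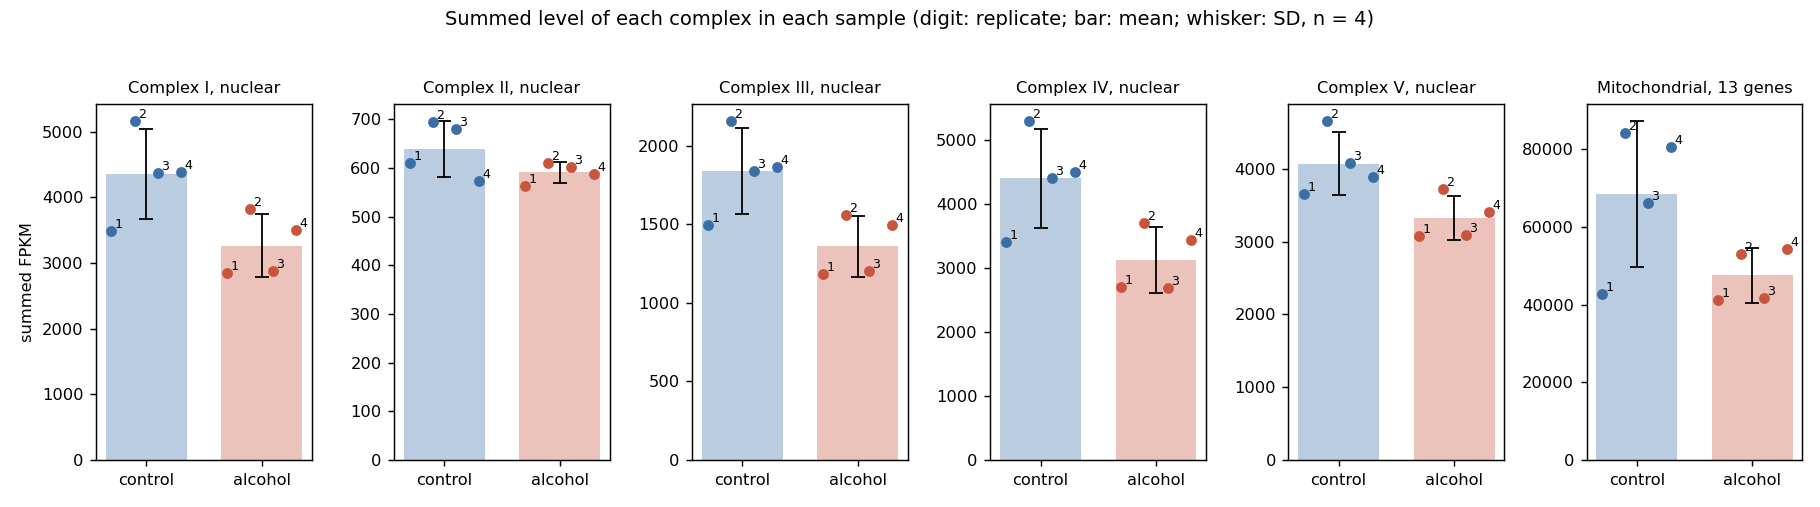
Summed FPKM of the nuclear subunits of each complex and of the 13 mitochondrial genes in each sample (points, with the replicate number), with the group mean (bar) and SD (whisker, n = 4). Control sample 1 is the lowest control in complexes I, III, IV and V and in the mitochondrial genes, and complex II shows the smallest gap between the groups.

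Complex I, the NADH dehydrogenase, held the largest fall. Ndufb3, an accessory subunit of the membrane arm (chromosome 1, 58586397 to 58595964, GRCm38), read 55.0, 81.0, 69.0 and 63.8 FPKM in control samples 1 to 4 and 26.1, 33.1, 26.4 and 28.9 FPKM in alcohol samples 1 to 4. Every alcohol sample lay well below every control. On the log2 scale the change was -1.20 ± 0.13 (SE; limma adjusted p = 4.67e-05), and the alcohol mean was 0.426 of the control mean. Ndufv3, an accessory subunit of the module that binds NADH (chromosome 17, 31520115 to 31531326), read 42.3, 62.5, 65.4 and 68.9 FPKM in controls and 27.7, 37.7, 26.9 and 39.7 FPKM with alcohol. Its groups did not overlap either, although control 1 and alcohol 4 were close. The log2 change of Ndufv3 was -0.84 ± 0.18 (limma adjusted p = 0.00253). Ndufa3, a small membrane subunit and the next largest fall among the nuclear genes of this complex, went from 257 ± 55.7 to 151 ± 33.1 FPKM (SD, n = 4; log2 change -0.76, limma adjusted p = 0.00577), with alcohol sample 2 just above control sample 1.

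The nuclear core subunits of complex I, which carry its electrons, included members that fell and members that were not called. Ndufs8, which holds iron-sulfur clusters near the ubiquinone site, read 65.3, 93.6, 92.7 and 92.7 FPKM in controls and 51.0, 56.0, 49.2 and 51.6 FPKM with alcohol. All alcohol samples were below all controls, and control 1 was far below the other controls. The fall was -0.70 ± 0.13 on the log2 scale (limma adjusted p = 0.00106). Ndufs7 (-0.61), Ndufs3 (-0.59) and the iron-sulfur subunit Ndufv2 (-0.40) also fell, with limma adjusted p of 0.00428, 0.00176 and 0.0183. Ndufs1, the largest iron-sulfur subunit, read 28.5, 24.0, 22.2 and 18.8 FPKM in controls and 30.1, 23.3, 27.2 and 22.2 FPKM with alcohol. Its groups overlapped, and whether it differs from the subunits that fell was not tested. Ndufs1 had a log2 change of 0.14 and Ndufv1, which binds NADH and flavin, of -0.08, with limma adjusted p of 0.425 and 0.513. These small values changed sign with the scaling: with median-of-ratios scaling Ndufs1 was -0.15, and with the gene length trend removed Ndufv1 was 0.05.

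In complex II, the succinate dehydrogenase, none of the 4 subunits passed the test. The flavoprotein Sdha read 160, 126, 132 and 97.4 FPKM in controls and 137, 123, 145 and 116 FPKM with alcohol. The alcohol samples lay inside the control range. Sdha changed by 0.03 ± 0.15 on the log2 scale, or by -0.27 with median-of-ratios scaling. The iron-sulfur subunit Sdhb changed by -0.28, and the membrane anchors Sdhc and Sdhd by -0.18 and 0.11, with limma adjusted p of 0.113, 0.187 and 0.442. Without control sample 1, Sdhb (-0.39) and Sdhc (-0.25) were called lower, with limma adjusted p of 0.0145 and 0.0491. Sdhd was called higher with the length trend removed (0.35, limma adjusted p = 0.0362) and was -0.19 with median-of-ratios scaling.

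In complex III, the cytochrome bc1 complex, 5 of 8 nuclear subunits fell. Uqcrfs1, the Rieske iron-sulfur protein (chromosome 13, 30540312 to 30545316), read 151, 205, 176 and 172 FPKM in controls and 99.4, 118, 101 and 109 FPKM with alcohol. No alcohol sample reached the lowest control. Uqcrfs1 changed by -0.71 ± 0.12 on the log2 scale (limma adjusted p = 0.000618). The small subunits Uqcr11 (-0.72) and Uqcrq (-0.64) and the core proteins Uqcrc2 (-0.38) and Uqcrc1 (-0.34) fell too. The lowest control of Uqcrc2 was 130 FPKM and its highest alcohol sample 117 FPKM, and for Uqcrc1 these were 137 and 122 FPKM. Uqcrb (-0.40), Uqcrh (-0.15) and Uqcr10 (-0.14) were not called.

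In complex IV, the cytochrome c oxidase, the falls were in small nuclear subunits that surround the mitochondrial core. Cox7c read 336, 609, 489 and 506 FPKM in controls and 263, 349, 262 and 334 FPKM with alcohol. Control sample 1 lay just below alcohol sample 2, and the other controls lay above all alcohol samples. For Cox7c the log2 change was -0.66 ± 0.18 (limma adjusted p = 0.0109), close to that of Cox7b (-0.66) and Cox6b1 (-0.61), with limma adjusted p of 0.0105 and 0.00964. Cox4i1, the common form of the subunit at which ATP inhibits the enzyme, averaged 591 ± 83.9 FPKM in controls and 458 ± 71.6 in alcohol samples (log2 change -0.37, limma adjusted p = 0.0611). Ndufa4 (-0.33) and Cox5a (-0.07) were not called.

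Several complex IV subunits exist as tissue forms, and the liver forms made up almost all of their transcripts here. Cox6a1, the form of most tissues, averaged 544 ± 99.1 FPKM in controls and 394 ± 58.8 in alcohol samples (log2 change -0.46, limma adjusted p = 0.0365), and Cox8a averaged 419 ± 60.8 and 278 ± 43.1 FPKM (log2 change -0.59, limma adjusted p = 0.00675). The muscle forms Cox6a2 and Cox8b, the lung form Cox4i2 and the testis form Cox6b2 were the 4 nuclear subunits under the level tested. Cox4i2 did not pass 0.160 FPKM in any sample and Cox6b2 did not pass 0.577 FPKM. Cox6a2 lay between 0.0896 and 0.695 FPKM in all samples but alcohol sample 4, where it was 3.31 FPKM, and Cox8b was 2.60 FPKM there and at most 0.554 FPKM in the others. In the same sample the muscle markers Mb, Acta1 and Ckm stood at 7.94, 1.63 and 0.913 FPKM. Acta1 and Ckm were also at 1.83 and 1.54 FPKM in control sample 1, where Cox8b was highest among controls. The part of muscle transcripts in these values was not tested. The muscle form Cox7a1 was near 1 FPKM (1.57 ± 0.85 and 0.895 ± 0.51) and Cox7a2, its liver form, at 189 ± 23.8 and 163 ± 40.9 FPKM, and neither was called.

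In complex V, the ATP synthase, 9 of 17 nuclear subunits fell, and 1 had a positive log2 change. That one was Atp5b, the catalytic beta subunit, which read 575, 451, 461 and 360 FPKM in controls and 597, 591, 615 and 543 FPKM with alcohol. Only control sample 1 reached into the alcohol range. Atp5b changed by 0.36 ± 0.15 on the log2 scale (limma adjusted p = 0.0546), and it was called higher without control sample 1 (0.47, limma adjusted p = 0.00932) and with the length trend removed (0.44, limma adjusted p = 0.0280) but not with median-of-ratios scaling, where it was 0.06. The alpha subunit Atp5a1 changed by -0.14 (limma adjusted p = 0.357) and the central stalk subunit Atp5c1 by -0.32 (limma adjusted p = 0.0314). Atp5e, the epsilon subunit of the stalk, read 251, 406, 325 and 319 FPKM in controls and 142, 239, 144 and 174 FPKM with alcohol. Its groups did not overlap, with control 1 and alcohol 2 the closest. The log2 change of Atp5e was -0.90 ± 0.19 (limma adjusted p = 0.0024). The membrane subunit Atp5md fell by 0.68 and the stalk subunit Atp5j by 0.59 on the log2 scale.

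The members set apart from the subunits included the only 2 called higher. Cox7a2l (chromosome 17, 83501917 to 83514333) is a relative of Cox7a linked to supercomplexes of complexes III and IV. Cox7a2l read 80.7, 62.7, 60.6 and 54.4 FPKM in controls and 88.3, 116, 86.8 and 115 FPKM with alcohol. Every alcohol sample was above every control, which held for 39.5% of all tested genes. Cox7a2l changed by 0.65 ± 0.15 on the log2 scale (limma adjusted p = 0.00399), with a value of 0.35 (limma adjusted p = 0.0547) under median-of-ratios scaling. Ndufa4l2, a relative of Ndufa4 induced in hypoxia, was near the level tested, at 0.990 ± 0.13 and 1.47 ± 0.35 FPKM. Its log2 change was 0.31 (limma adjusted p = 0.0368), and the call was lost without control sample 1 (adjusted p = 0.0797) and with median-of-ratios scaling, while quantile normalization gave -0.01. Ndufb4b, Ndufb4c and Ndufs6b, near copies of Ndufb4 and Ndufs6, were not called. Ndufb4 and Ndufb4c are identical over 390 aligned bases, so their reads are uncertain one by one. In all, 15 nuclear subunits have an annotated pseudogene copy of at least 95% identity over at least 200 bases. Of these, 9 were called lower. Among them are Ndufb3 (Gm45930, 96.8% over 282 bases), Ndufs3 (Gm12251, 98.6% over 792 bases) and Cox7b (Gm19503, 96.7% over 241 bases). The part of such copies in the subunit values was not tested.

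**Figure D3:**
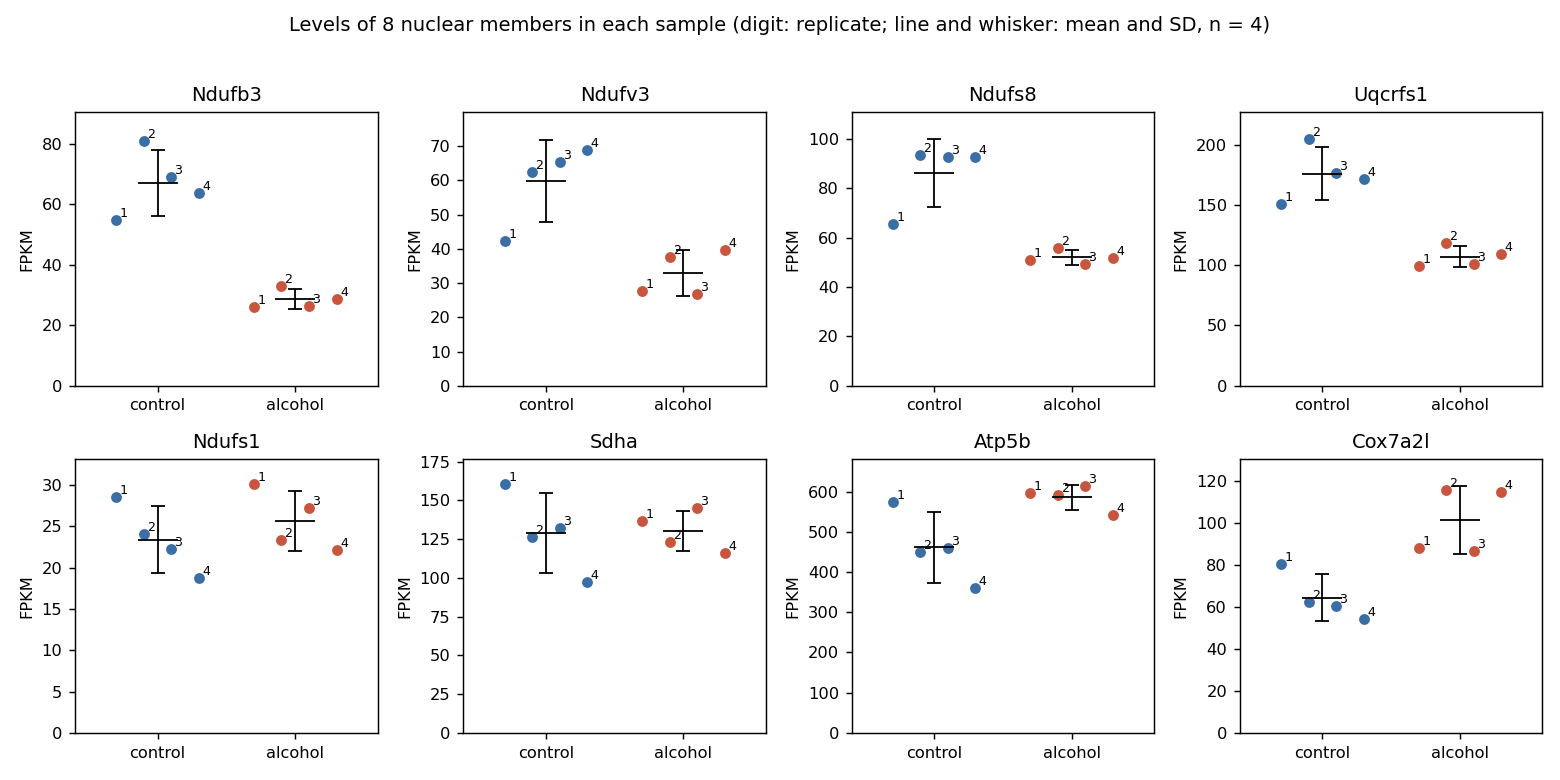
FPKM of 8 nuclear members in each sample (points, with the replicate number), with the group mean and SD (line and whisker, n = 4). Ndufb3, Ndufv3, Ndufs8 and Uqcrfs1 are lower in every alcohol sample than in any control, Ndufs1 and Sdha overlap, Atp5b overlaps through control sample 1 only, and Cox7a2l is higher in every alcohol sample.

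The 13 mitochondrial genes all had a negative log2 change. ND6, a complex I subunit and the only protein gene on the light strand of the mitochondrial genome, read 55.8, 106, 80.3 and 54.1 FPKM in controls and 30.7, 40.9, 35.5 and 35.2 FPKM with alcohol. The groups did not overlap. Its log2 change was -0.99 ± 0.20 (limma adjusted p = 0.00179), and ATP8, a short subunit of complex V, had -0.97 ± 0.23 (limma adjusted p = 0.0043), from 31.0 ± 8.94 to 15.5 ± 4.54 FPKM. The other genes called lower were all of complex I: ND4L (-0.80), ND2 (-0.74), ND4 (-0.61) and ND5 (-0.58). COX1, the catalytic subunit of complex IV and the most abundant member, read 13893, 28679, 22957 and 27281 FPKM in controls and 13527, 17061, 14350 and 19048 FPKM with alcohol. Control sample 1 lay among the alcohol samples, and the other 3 controls lay above them. Its log2 change was -0.50 ± 0.25 (limma adjusted p = 0.117). CYTB, the complex III subunit, changed by -0.34, ND1 by -0.36, ND3 by -0.18, COX2 by -0.50, COX3 by -0.60 and ATP6 by -0.66, none of them called. ND6 shares 14 annotated bases with ND5 on the other strand and ND4L 7 bases with ND4, so reads from these stretches cannot be told apart. Whether the libraries kept strand is not given in the sources used here. How much of the ND6 signal came from RNA of the other strand was not tested. ATP8 shares 43 of its 204 bases with ATP6 on the same strand, a larger part of the gene. It had 76 to 311 reads a sample.

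Levels within the mitochondrial genome fell into a high and a low range. In control samples COX1 averaged 23202 FPKM, CYTB 14461, ND2 10204, ND1 9900, ND4 5208 and ND5 4064, whereas COX2, COX3, ATP6, ND3 and ND4L averaged 478, 372, 348, 90.3 and 51.0 FPKM. These last 5 genes are also the 5 for which at least 95% of the sequence has a copy of at least 99% identity in annotated nuclear pseudogenes, all on chromosome 1. COX2 matches Gm28661 over 681 bases (24614885 to 24615565) and COX3 matches Gm28437 over 783 bases (24613189 to 24613971), both at 100% identity in GENCODE M21 on GRCm38. None of these pseudogenes is listed in the table. ND6 (74.1 FPKM) and ATP8 (31.0 FPKM) were as low with no such annotated copy. ND4 and COX1, with 63.6% and 31.3% of their sequence in such copies, were high. Only annotated transcripts were searched. ATP8 lies between COX2 and ATP6, and the stretch between the copies of these 2 genes (24614651 to 24614885) was not searched. A nuclear copy of ATP8 there is therefore not excluded. How reads that fit both genomes were handled is not given in the sources used here, and its part in these levels was not tested. The first 60 bases of COX3 are shown with its copy, and a stretch of CYTB with its closest nuclear copy, Gm11410 on chromosome 4, because they show how far a read can tell the genomes apart. Capitals mark bases that differ, 0 of 60 for COX3 and 3 of 60 for CYTB.
COX3: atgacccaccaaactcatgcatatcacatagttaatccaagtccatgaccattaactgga
Gm28437: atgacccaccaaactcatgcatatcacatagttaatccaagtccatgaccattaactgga
CYTB: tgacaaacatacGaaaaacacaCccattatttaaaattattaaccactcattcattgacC
Gm11410: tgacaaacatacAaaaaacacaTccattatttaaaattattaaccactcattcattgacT

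**Figure D4:**
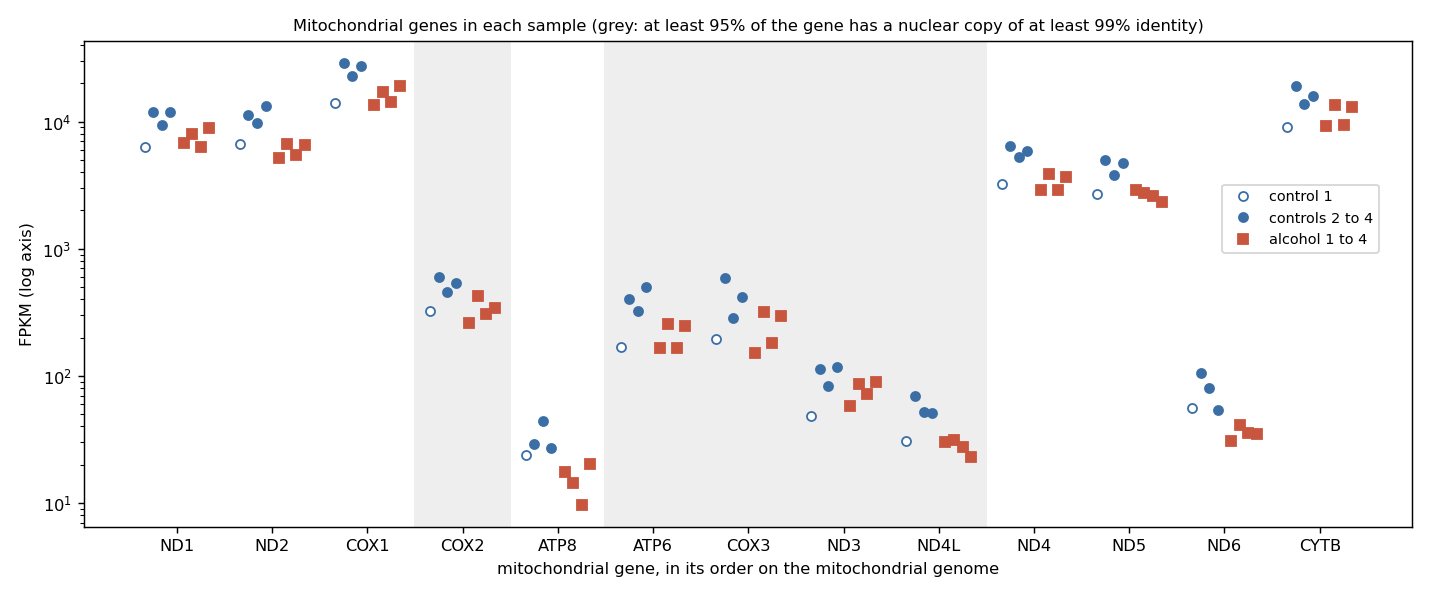
FPKM of the 13 mitochondrial genes in each sample on a log axis, in genome order, with control sample 1 as open circles, the other controls as filled circles and alcohol samples as squares. The shaded genes, with a near-identical nuclear copy, lie under 1000 FPKM as do ATP8 and ND6, and control sample 1 is the lowest control for 12 of the 13 genes.

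The 8 mitochondrial genes with under 95% of their sequence in annotated copies held 5 of the 6 calls. Among these calls were ND4, with 63.6% of its sequence in such copies, and ATP8, whose nuclear stretch was not searched. The median log2 change of the 8 genes was also -0.60. That median was -0.38 with 3 called lower when the length trend was removed, and -0.21 with 2 called lower and 3 positive values under quantile normalization. Summed over the 13 mitochondrial genes, FPKM was 42693, 84305, 66261 and 80671 in control samples 1 to 4 and 41153, 52995, 41810 and 54438 in alcohol samples 1 to 4. The alcohol mean was 0.695 of the control mean, and control sample 1 again lay among the alcohol samples. In reads, the mitochondrial genes took 5.47%, 10.8%, 8.54% and 10.3% of the control libraries and 5.30%, 6.75%, 5.39% and 6.95% of the alcohol libraries. The exact binomial 95% intervals of these shares, which cover counting error only, are narrow: 5.46% to 5.48% in control sample 1 and 10.8% to 10.9% in control sample 2.

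The ratio of the mitochondrial to the nuclear sum did not separate the groups. The summed mitochondrial over the summed nuclear FPKM was 3.38, 4.69, 4.31 and 5.30 in control samples 1 to 4, a mean of 4.42 ± 0.81 (SD, n = 4). It was 3.96, 3.95, 4.00 and 4.38 in alcohol samples 1 to 4, a mean of 4.07 ± 0.20. The alcohol values lay inside the control range. Without control sample 1 the control mean was 4.77 ± 0.50 (n = 3). No p-value was computed for these sums.

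The overlap of the groups rested mostly on control sample 1. It was the lowest control for 63 of the 77 nuclear subunits and for 12 of the 13 mitochondrial genes, against 2097 of all 9228 tested genes. All 4 alcohol samples lay below all 4 controls for 18 nuclear subunits (9 of complex I, 4 of complex III, 2 of complex IV and 3 of complex V) and for 2 mitochondrial genes, where 10.7% of all tested genes did so. Against control samples 2 to 4 alone, the alcohol samples lay below for 52 nuclear subunits and 11 mitochondrial genes, where 14.1% of all tested genes did so. In limma without control sample 1, 52 nuclear subunits and 12 mitochondrial genes were called lower and 1 nuclear subunit, Atp5b, was called higher, beside 13.8% of all tested genes lower and 47.3% higher. Without control sample 4, 32 nuclear subunits and 3 mitochondrial genes were called lower, beside 11.95% of all tested genes. Without control sample 2, 28 nuclear subunits and 4 mitochondrial genes were called lower, beside 10.91% of all tested genes.

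Changes also moved with gene length. Most subunit genes are short: the 77 nuclear subunits had a median length of 772 bases, as recovered from the FPKM values, against 3159.5 bases for all tested genes. Among all tested genes under 600 bases, 70 of 205 were called lower and the median log2 change was -0.29, against 0.30 for those of 1500 bases and over. Among nuclear subunits under 600 bases, 18 of 26 were called lower with a median of -0.56, and of those of 1500 bases and over 9 of 19 with a median of -0.32. Across the 77 subunits, Spearman's rho between length and log2 change was 0.43, and across all tested genes 0.32, as a description over genes that share the same libraries. The slope of each sample's deviation on log2 length over all tested genes was 0.03 in control sample 1 and -0.12, -0.10 and -0.11 in control samples 2 to 4, and it was 0.14, 0.01, 0.14 and 0.02 in alcohol samples 1 to 4.

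When the length trend of all genes was removed from each sample, the calls were fewer. Then 19 nuclear subunits were called lower and 9 higher, with a median log2 change of -0.09, and 3 mitochondrial genes were called lower and 0 higher. Over all tested genes the shares were 12.6% lower and 44.5% higher, and the median was 0.22. All 19 had also been called lower on the deposited scale: 11 of complex I, 4 of complex III, 3 of complex V and 1 of complex IV. Ndufb3 kept a log2 change of -0.83 (limma adjusted p = 5.34e-05), Ndufv3 of -0.70 (0.00206), Uqcrfs1 of -0.48 (0.00103), Uqcrq of -0.49 (0.0146) and Ndufs8 of -0.39 (0.00428), while Cox7c (-0.20) and Ndufa3 (-0.24) were no longer called, with adjusted p of 0.095 and 0.0548. The 9 called higher were Ndufa7 (0.35), Ndufs6 (0.28), Ndufb11 (0.25) and Ndufb5 (0.19) of complex I, Sdhd of complex II, Uqcr10 (0.31) and Uqcrh (0.27) of complex III, and Atp5b and Atp5g2 (0.33) of complex V. Cox7a2l stood at 0.92 (limma adjusted p = 0.000714). The mitochondrial genes still called lower were ND6 (-0.55), ND5 (-0.50) and ND2 (-0.43). The part of gene length in the deposited values, whether technical or biological, was not tested further.

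**Figure D5:**
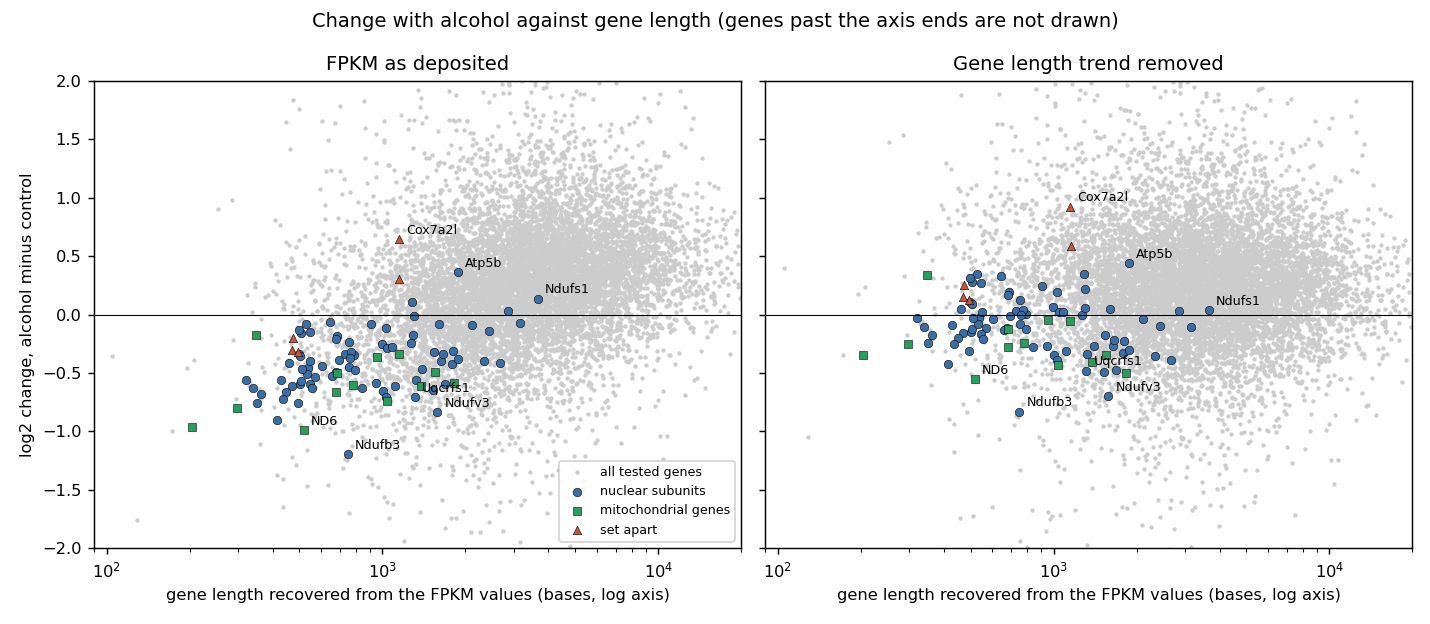
Log2 change with alcohol against gene length for all tested genes (grey), nuclear subunits (blue circles), mitochondrial genes (green squares) and members set apart (red triangles), with the values as deposited (left) and with the length trend removed (right). Short genes lie lower on the left, and on the right the nuclear subunits centre on -0.09 while Ndufb3 stays at -0.83.

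Changes of scale moved the values of the members in both directions. On the TPM scale the nuclear median was -0.26, with 31 called lower and 1 higher, and the mitochondrial median -0.45, with 4 called lower. Over all tested genes 8.82% were then lower and 52.7% higher. Quantile normalization gave a nuclear median of -0.35, with 37 called lower and 1 higher. The mitochondrial median was then -0.35, with 4 called lower, beside 25% of all tested genes lower and 24.1% higher. Median-of-ratios scaling lowered the median log2 change of all tested genes from 0.24 to about 0, and under it 66 nuclear subunits and 9 mitochondrial genes were called lower and 0 higher, beside 26.5% of all tested genes lower and 25.9% higher. Over all 19 alternative fits, 14 nuclear subunits and 1 mitochondrial gene, ND6, were called lower in every one. These were Ndufb3, Ndufv3, Ndufs8, Ndufs3, Ndufs7, Ndufa1, Ndufa9 and Ndufb2 of complex I, Uqcrfs1, Uqcr11 and Uqcrq of complex III, Cox7b of complex IV, and Atp5e and Atp5j of complex V. Across these fits the log2 change of Ndufb3 ran from -1.49 to -0.83, with a largest limma adjusted p of 0.000587. No member was called higher in every fit. The share of all tested genes called lower in every fit was not computed, so these counts have no background beside them.

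Promoters of the nuclear subunits were read for motifs of factors known to drive respiration genes, since many of these genes moved together. RefSeq promoters (GRCm38.p6, from 250 bases before to 50 bases after the start) matched 67 nuclear subunits by symbol, with 72 starts. On either strand, the NRF1 motif GCGCATGC was found in 13.9% of these starts against 2.71% of 32851 promoters of all genes, the YY1 motif AAGATGGC in 13.9% against 2.75%, the GABPA motif CCGGAAGT in 6.94% against 3.89%, and the ESRRA motif TCAAGGTCA in 2.78% against 0.423%. The NRF1 motif was in 14.6% of starts of subunits called lower and in 13.8% of starts of tested subunits not called, and YY1 had the same shares. For GABPA these were 9.76% (4 of 41 starts) and 3.45% (1 of 29), and for ESRRA 2.44% and 3.45% (1 start each), with no test made. The promoters of Cox6a1, Atp5k and Uqcr11 are shown as examples from subunits that were called lower, with motif matches in capitals. NRF1 matches on both strands overlap and begin 162 and 160 bases before the start of Cox6a1 and 50 and 48 bases before that of Atp5k, and a GABPA match begins 66 bases before that of Uqcr11. The windows lie at chr5:115348959-115349208, chr5:108434400-108434649 and chr10:80406822-80407071, all on the minus strand of GRCm38.
Cox6a1: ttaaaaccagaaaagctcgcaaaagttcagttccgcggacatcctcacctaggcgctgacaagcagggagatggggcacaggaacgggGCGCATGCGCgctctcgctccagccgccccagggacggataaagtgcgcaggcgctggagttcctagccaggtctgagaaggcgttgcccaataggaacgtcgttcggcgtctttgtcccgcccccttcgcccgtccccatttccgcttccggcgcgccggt
Atp5k: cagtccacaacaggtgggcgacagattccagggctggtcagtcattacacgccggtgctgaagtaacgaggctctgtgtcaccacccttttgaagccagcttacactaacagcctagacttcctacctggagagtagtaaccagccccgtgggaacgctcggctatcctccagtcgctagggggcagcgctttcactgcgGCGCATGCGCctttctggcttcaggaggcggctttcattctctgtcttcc
Uqcr11: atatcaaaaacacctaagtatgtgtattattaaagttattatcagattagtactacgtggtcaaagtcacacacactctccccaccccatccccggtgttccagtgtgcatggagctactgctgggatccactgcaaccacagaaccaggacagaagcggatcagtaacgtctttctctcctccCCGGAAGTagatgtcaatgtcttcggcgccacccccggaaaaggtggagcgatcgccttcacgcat
NRF1 matches before the start were also found in Sdhb and Ndufa11, which were not called. The 250 bases before the starts of Ndufb3, Ndufv3, Uqcrfs1, Cox7a2l and Atp5b held none of the 4 motifs. The shares above also cover the 50 bases after the start, which these windows leave out, so matches there are not excluded.

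The counts of genes that build and supply the chain are read beside the 13% of all tested genes called lower and the 44.2% called higher, or 26.5% and 25.9% with median-of-ratios scaling. Of complex I assembly factors 6 of 14 fell and 1 rose (median log2 change -0.22, beside 0.24 over all tested genes). Ndufaf1 went from 20.5 ± 1.44 to 11.1 ± 0.21 FPKM (log2 change -0.82, limma adjusted p = 4.1e-05) and Ecsit from 15.4 ± 1.78 to 9.41 ± 0.72 FPKM (-0.65), whereas Nubpl, which delivers iron-sulfur clusters to complex I, rose from 2.96 ± 1.04 to 6.16 ± 0.54 FPKM (0.89, limma adjusted p = 0.00135). Of complex III assembly factors 3 of 5 fell, among them Bcs1l (-0.35), which inserts the Rieske protein Uqcrfs1. Of complex IV assembly factors 4 of 20 fell and 2 rose, with Pet100 at -0.91 and the heme synthesis enzyme Cox10 at 0.38. Sdhaf1, for complex II, rose by 0.46 and Tmem70, for complex V, by 0.29, each 1 of 4 tested. Sdhaf1 with median-of-ratios scaling was 0.17 (limma adjusted p = 0.241), Tmem70 0.003 (0.981) and Cox10 0.14 (0.252). Under that scaling 9 complex I assembly factors were called lower and 1 higher, and for complexes II to V 1, 4, 10 and 2 were called lower and 0 higher. Cytochrome c (Cycs) fell by 0.45 and the acyl carrier subunit Ndufab1 by 0.44, which were 2 of 4 subunits and carriers whose symbols the naming pattern leaves out.

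Of genes that copy and transcribe mitochondrial DNA, 6 of 12 rose and 1 fell (median log2 change 0.29), a share called higher near that of all tested genes. The helicase Twnk went from 3.39 ± 0.92 to 6.06 ± 0.48 FPKM (log2 change 0.70, limma adjusted p = 0.00137) and the mitochondrial RNA polymerase Polrmt from 3.25 ± 0.24 to 4.72 ± 0.31 FPKM (0.43, limma adjusted p = 0.00224). With median-of-ratios scaling 2 of these 12 were called higher and 4 lower, and Polrmt was 0.19 (limma adjusted p = 0.0869). Of genes for mitochondrial RNA processing and stability, 7 of 15 rose and 3 fell, with Hsd17b10, a subunit of mitochondrial RNase P, at 218 ± 57.1 and 118 ± 6.02 FPKM. This share called higher was also near that of all tested genes, and with median-of-ratios scaling 3 were called higher and 5 lower. Of 10 listed transcriptional regulators of respiration genes, 5 were tested and 5 were under the level tested. Among those tested, 4 rose and 0 fell: Pprc1 (1.10), Gabpa (0.70), Yy1 (0.51) and Gabpb2 (0.42). Of the untested, the mean of Ppargc1a went from 0.456 to 0.252 FPKM and that of Ppargc1b from 0.715 to 0.319 FPKM. The mean of Nrf1 went from 0.295 to 0.896, of Gabpb1 from 0.214 to 0.478 and of Nrip1 from 0.286 to 1.29 FPKM. With median-of-ratios scaling Gabpb2 was no longer called (limma adjusted p = 0.0581), nor was it with the length trend removed (0.071), and Esrra was called lower (-0.43, limma adjusted p = 0.0131). An exon of Gabpa shares 397 bases with Atp5j on the other strand, and whether the libraries kept strand is not given in the sources used here. Of 17 tested electron carriers and ubiquinone genes, 4 rose and 4 fell, led by Coq10b (-0.86, limma adjusted p = 3.43e-05). These counts became 0 higher and 11 lower with median-of-ratios scaling, and 1 higher and 3 lower with the length trend removed.

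Genes of the mitochondrion outside the chain had mixed directions. Of 12 genes taken as signs of mitochondrial mass, 3 rose and 2 fell (median log2 change 0.08), where 44.2% of all tested genes rose and 13% fell. With median-of-ratios scaling 3 were called higher and 5 lower, and with the length trend removed 5 higher and 1 lower. Citrate synthase (Cs) went from 39.2 ± 4.70 to 67.7 ± 2.41 FPKM (log2 change 0.78, limma adjusted p = 0.000161), and the import proteins Timm23 and Tomm20 changed by 1.00 and 0.94, while the outer membrane channel Vdac2 fell by 0.34. Cs, Timm23 and Tomm20 were also called higher with the length trend removed and with median-of-ratios scaling. Of the genes for nucleotide and phosphate exchange, 0 of 4 tested were called by limma, with Slc25a5 at -0.02 and Slc25a3 at 0.18. With median-of-ratios scaling 2 of the 4 were called lower, Slc25a5 at -0.32 among them, and Slc25a3 was -0.12.

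Counts of liver cell markers are read beside the 44.2% of all tested genes called higher and the 13% called lower. All 6 endothelial markers rose, and their summed FPKM was 11.9 to 18.9 in control samples and 53.4 to 63.4 in alcohol samples. Of 5 stellate cell markers 3 rose (sums of 35.9 to 66.3 and 97.3 to 137), and of 4 tested Kupffer cell markers 1 fell (sums of 18.8 to 68.9 and 22.9 to 43.3). Of 5 red blood cell markers 1 fell (sums of 179 to 362 and 122 to 196). Of 5 hepatocyte markers 1 rose and 2 fell. With median-of-ratios scaling 25.9% of all tested genes were called higher and 26.5% lower. Under it 6 endothelial and 3 stellate cell markers were called higher and 0 lower. Of the hepatocyte, Kupffer cell and red blood cell markers 0 were then called higher, and 2, 1 and 2 lower. No marker list had a gene at 0 in all samples. The part of cell composition in the subunit values was not tested.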

How the data were processed

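The deposited values are FPKM per gene symbol, 1 column for each of the 8 samples, as the authors normalized them, so each value depends on the total of its library. Per the labels' protocols, RNA was column-purified and libraries were made with a SMARTER mRNA kit. The submitters' processing notes name the builds GRCm38 and mm10. Aligner, counter and settings were not given in the sources used here.

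Groups were compared with limma 3.58.1 (R 4.3.3) on log2(FPKM + 1), with moderated variances and a trend on mean level, for 9228 genes whose mean reached 1 FPKM. P-values are 2-sided with Benjamini-Hochberg adjustment over all tested genes, called under 0.05. Log2 changes are alcohol minus control on the log2(FPKM + 1) scale, which shrinks those of low genes. Whole reads, library totals and gene lengths were recovered from the FPKM values of all 21049 genes, to a tolerance of 0.001 read. These reads were not used for the main test. An alternative on them (limma-voom) called 42 nuclear subunits and 7 mitochondrial genes lower, beside 12.87% of all tested genes. The scripts were tested on simulated data.

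Alternatives were a pseudocount of 0.1, no expression filter, median-of-ratios scaling, quantile normalization, a TPM scale, library totals without mitochondrial reads, a replicate block and leaving out samples. In the length correction, a loess curve of each sample's deviation from the gene mean on log length was subtracted. Copies were found with BLAST 2.17.0 against GENCODE transcripts.

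One member is not reported here by itself, though it stayed in the fits and counts. The genes named are the 13 mitochondrial genes, the core nuclear subunits and isoform pairs whatever their values, the 3 largest rises and falls of each complex among those called, the members set apart, and up to 4 called members of each pathway list. Ndufa1, Ndufa9, Ndufb2, Cox5a, Atp5k and other subunits outside this rule were named after their values were seen. The members and gene lists were chosen with earlier results of these data known.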

Additional observations from a re-analysis of the deposited data

Results flagged for a closer look

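A sample was flagged where its gap to the nearest other sample of its group, divided by the range of the group, passed Dixon's critical value for 4 samples. Of 150 groups checked, 6 were flagged, and chance flags about 1 in 20. Ndufs8 in control sample 1 was 65.3 FPKM against 92.7 to 93.6 FPKM in the other controls (0.970). In alcohol sample 4, Cox6a2 was 3.31 FPKM against 0.237 to 0.695 FPKM (0.851) and Cox8b was 2.60 FPKM against 0 to 0.215 FPKM (0.917). The ratio of summed mitochondrial to nuclear FPKM in alcohol sample 4 was 4.38 against 3.95 to 4.00 (0.890). Over the mitochondrial genes with under 95% of their sequence in annotated copies it was 4.30 against 3.87 to 3.93 (0.864). The slope of deviation on log2 gene length in control sample 1 was 0.03 against -0.12 to -0.10 in the other controls (0.914).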

How the results depend on the processing

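The count of nuclear subunits called lower (42) became 66 with median-of-ratios scaling, 19 with the length trend removed and 22 with the length trend removed and no control replicate 1, the last chosen after seeing the data. The count called higher (0) became 1 with quantile normalization, with the TPM scale, with the replicate block and without control replicate 1, 9 with the length trend removed and 8 with that and no control replicate 1. Mitochondrial genes called lower (6) became 3 without the expression filter, 3 with the length trend removed, 10 with the replicate block and 12 without control replicate 1. Leaving out 1 sample at a time gave 28 to 52 nuclear subunits called lower, 0 to 1 called higher and 3 to 12 mitochondrial genes called lower. Of all tested genes 10.84% to 13.85% were called lower in these fits. The replicate numbers do not pair the samples by the measure used, since the correlations of same-numbered deviations were 0.349, 0.216, 0.0706 and 0.280 and control samples 2 and 3 correlated best with another number. With the replicate block 51 nuclear subunits were called lower, beside 14.95% of all tested genes.

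Among the members named by the rule above, 32 values changed sign, with Ndufa4l2 the 1 such gene called on the deposited scale. With the length trend removed they were ND3 (0.34), Ndufv1 (0.0501), Sdhb (0.0259), Sdhc (0.053), Cox7a1 (0.0466), Cox7a2 (0.13), Ndufa4 (0.11), Ndufb4b (0.15), Ndufb4c (0.13) and Ndufs6b (0.26), and also without control replicate 1 ND3 (0.18), Ndufv1 (0.13), Sdhc (0.0307), Cox7a1 (0.0347), Cox7a2 (0.18), Ndufa4 (0.16), Ndufb4b (0.20), Ndufb4c (0.0095) and Ndufs6b (0.21). With quantile normalization they were ND1 (0.33), CYTB (0.12), Ndufs1 (-0.0214), Ndufv1 (0.00735) and Ndufa4l2 (-0.00528), and with the TPM scale Ndufv1 (0.0643) and Atp5a1 (0.00915). With median-of-ratios scaling they were Ndufs1 (-0.15), Sdha (-0.27) and Sdhd (-0.19). Sdha was also -0.0126 with library totals without mitochondrial reads and between -0.10 (without control replicate 4) and 0.14 (without control replicate 1) when 1 sample was left out. Subunits outside the naming rule are not in this count of sign changes. Among them Atp5l, called lower as deposited, was 0.0089 with the length trend removed. Atp5k, also called lower, was 0.056 with that and no control replicate 1. Of the 77 nuclear subunits, 5 had a positive change as deposited and 28 with the length trend removed. The cause of these sign changes was not tested. The ratio of mitochondrial to nuclear sums, alcohol over control, was 0.850 to 0.988 over its alternatives (0.922 as deposited). Depth did not limit the members tested, except those near 1 FPKM such as Cox7a1 (8 to 38 reads a sample).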
